A study of Mus musculus with 12 samples.

Results

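Matricellular proteins are secreted into the extracellular matrix, where they bind collagen, growth factors and cell-surface receptors without forming the load-bearing scaffold. In the adult heart most of them are kept low and rise after injury, pressure load or stretch, with fibroblasts as a main source and cardiomyocytes contributing some members. The genes described here are Ctgf and Cyr61 (2 members of the CCN family), Thbs1, Thbs2 and Thbs4 (thrombospondins), and Postn, Sparc, Spp1 and Tnc (periostin, SPARC, osteopontin and tenascin-C). They were taken by gene symbol, from a list drawn up with earlier results of these data known, and are 9 of the 23457 rows of the deposited count table. All 9 were detected, and 8 of them, all but Spp1, were among the 13050 genes that passed the filter on low counts.

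Polyadenylated RNA was sequenced from 6 Parkin KO and 6 noninduced mouse hearts. Parkin is a ubiquitin ligase of mitochondrial quality control, and the comparison asks how its loss in the adult heart alters messenger RNA. Parkin KO mice carried floxed alleles and MERCreMer, a tamoxifen-activated Cre recombinase, and were induced as adults; noninduced mice carried floxed alleles and no Cre. Both groups are C57BL/6J adults, and the labels give both the same time point, 9 to 10 weeks after tamoxifen. The protocol names the ventricular apex as the tissue taken, while the tissue label says whole heart. Per the labels MERCreMer was present in the Parkin KO group alone, so effects of Parkin loss and of the recombinase cannot be told apart. The labels do not name the promoter that drives it.

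Total counts ran from 13787150 to 16736228 in Parkin KO libraries and from 11610507 to 16884516 in noninduced libraries, and a single read counted for 0.0548 to 0.0948 CPM (the count scaled to library size). Esr1, whose reads can include those of the MERCreMer transgene, ran from 1553 to 4683 CPM in Parkin KO libraries and from 24.0 to 962 CPM in noninduced libraries. The libraries labelled noninduced 1 and noninduced 3 held 558 and 962 CPM of it, while noninduced libraries 2, 4, 5 and 6 held 24.0 to 64.9 CPM. Those 558 and 962 CPM go against a label of no Cre but lie below every Parkin KO library. Whether noninduced libraries 1 and 3 carried MERCreMer was not tested, and results are also given without them. Park2, the gene of Parkin, had 24 to 45 counts (1.54 to 3.28 CPM) in Parkin KO libraries and 24 to 45 counts (1.75 to 3.22 CPM) in noninduced libraries, a log2 fold change of -0.05 ± 0.21 with an adjusted p of 0.930. The labels do not say which part of the gene is floxed, and reads outside that part do not test the deletion. The Parkin KO group therefore rests on its labels and on Esr1, and the group names below are those of the labels. Y-linked reads numbered 495 to 634 in Parkin KO libraries 2, 5 and 6 and 178 in the library labelled noninduced 3, which also held Xist; the other 8 libraries had Xist and at most 7 such reads. Summed cardiomyocyte markers, most of them not particular to the ventricle, ran from 100070 to 121150 CPM in Parkin KO and from 81513 to 114820 CPM in noninduced libraries. Summed atrial markers were uneven, at 1592 CPM in Parkin KO library 1 and 196.5 to 529.8 CPM in the other Parkin KO libraries. They were at 3484, 6166 and 4115 CPM in noninduced libraries 2, 5 and 6 and 167 to 717 CPM in noninduced libraries 1, 3 and 4. Nppa supplied 1450 CPM of the sum in Parkin KO library 1 and 4049 CPM in noninduced library 6. In noninduced libraries 2 and 5 it supplied 1775 and 3607 CPM. Myl7, another atrial marker, had 40.7 CPM in Parkin KO library 1 and 1.37 CPM in noninduced library 6. It had 760 and 1107 CPM in noninduced libraries 2 and 5. In bulk tissue, fewer cells of a type and less RNA per cell cannot be told apart.

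Promoters of the genes on which the results turn are printed first. RefSeq promoter windows of build GRCm38.p6, 250 bases before to 50 bases after a transcription start, were at hand for 7 of the 9 genes, in 10 entries; Ctgf and Thbs1 had none. Postn and Thbs4 are shown because they varied together most closely from heart to heart, Cyr61 as a textbook target of stretch signalling, and Thbs2 as the member with the higher mean in Parkin KO hearts. Windows are printed 5′ to 3′ on the strand of the gene, with motif matches in capitals.
Postn, chr3:54360857-54361156, plus strand: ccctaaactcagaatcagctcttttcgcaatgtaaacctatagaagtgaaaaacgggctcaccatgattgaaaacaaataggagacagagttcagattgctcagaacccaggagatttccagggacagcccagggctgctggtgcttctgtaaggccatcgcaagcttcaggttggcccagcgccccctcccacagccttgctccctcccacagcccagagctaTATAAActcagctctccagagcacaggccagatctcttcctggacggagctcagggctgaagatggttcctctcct
Thbs4, chr13:92794769-92795068, minus strand: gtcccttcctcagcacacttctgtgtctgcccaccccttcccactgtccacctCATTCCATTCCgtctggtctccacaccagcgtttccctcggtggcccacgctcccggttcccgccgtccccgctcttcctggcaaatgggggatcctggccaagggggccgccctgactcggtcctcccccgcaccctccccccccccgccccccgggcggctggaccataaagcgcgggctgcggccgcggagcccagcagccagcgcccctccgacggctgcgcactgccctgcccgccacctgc
Cyr61, chr3:145649936-145650235, minus strand: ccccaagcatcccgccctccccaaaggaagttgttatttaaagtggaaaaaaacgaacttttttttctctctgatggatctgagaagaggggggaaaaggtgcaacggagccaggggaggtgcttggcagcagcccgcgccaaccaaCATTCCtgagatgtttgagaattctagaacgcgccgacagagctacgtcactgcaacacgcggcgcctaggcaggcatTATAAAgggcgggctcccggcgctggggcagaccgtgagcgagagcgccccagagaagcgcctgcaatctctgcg
Thbs2, chr17:14694213-14694512, minus strand: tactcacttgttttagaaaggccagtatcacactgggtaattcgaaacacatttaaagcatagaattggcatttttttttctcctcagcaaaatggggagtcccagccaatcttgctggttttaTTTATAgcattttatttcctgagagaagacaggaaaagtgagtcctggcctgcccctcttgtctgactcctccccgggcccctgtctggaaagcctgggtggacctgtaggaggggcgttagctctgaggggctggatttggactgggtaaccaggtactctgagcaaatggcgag
The letters searched, on both strands, were CATTCC (the core bound by TEAD factors), TGANTCA (AP-1), TATAAA (the TATA box) and the CArG box bound by SRF. CATTCC occurred in Thbs4 at positions -197 and -192, where the matches share a base, and in Cyr61 at position -103, counted from the start site. It was present in 14.7% of all 32851 windows. TATAAA lay at position -26 in Postn and -25 in Cyr61, and on the other strand, as TTTATA, at position -126 in Thbs2; 13.6% of all windows hold it. It was also found in Tnc at position -126 from one start and -205 from another, and in Spp1 at position -211. The AP-1 letters, present in 7.81% of all windows, and the CArG box, present in 1.63%, were in none of the 10 windows. Sparc held none of the 4 motifs, but its start in this window lies inside the GENCODE gene, downstream of its 5′ end, where no window was searched. These matches describe the letters of the windows alone.

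The 9 genes differ widely in level. On the deposited FPKM scale, which divides by transcript length, Sparc came first with a mean of 229.6 FPKM over the 12 libraries (157 to 409), then Ctgf with 72.6 FPKM (32.8 to 142) and Cyr61 with 31.1 FPKM (22.2 to 53.1). Postn followed with 16.7 FPKM (2.67 to 93.3), Thbs2 with 5.73 FPKM (3.15 to 8.97), Thbs4 with 4.995 FPKM (1.81 to 17.9) and Thbs1 with 2.51 FPKM (0.776 to 5.72). Tnc, at 0.369 FPKM (0.137 to 1.07), and Spp1, at 0.299 FPKM (0.0469 to 1.56), were at the bottom. Sparc exceeded Ctgf, Ctgf exceeded Cyr61, Thbs4 exceeded Thbs1 and Thbs1 exceeded Tnc in all 12 libraries. The middle of the order did not hold from heart to heart. Postn exceeded Thbs2 in 2 of 6 Parkin KO and 5 of 6 noninduced libraries, and Thbs2 exceeded Thbs4 in 5 of 6 Parkin KO and 2 of 6 noninduced libraries.

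Between the groups, 7 of the 8 tested genes had a lower mean and 1, Thbs2, a higher mean in Parkin KO than in noninduced hearts, and none passed the test. The largest differences by size of effect were Thbs1, Postn and Ctgf, with log2 fold changes of -1.30, -1.11 and -0.92. With edgeR's quasi-likelihood test, 0 of the 8 had an adjusted p under 0.05, and the same was true of all 13050 genes, of which 0% were called. DESeq2 called 10 of 11267 genes, or 0.0888%, none of them among these genes. At an unadjusted p under 0.05, 4 of the 8 were lower and 1 was higher in Parkin KO hearts, against 5.54% of all tested genes lower and 5.82% higher. The median log2 fold change of the 8 was -0.87, beside 0.01 over all genes tested, and a log2 fold change below 0 was found for 48% of all genes. The 8 were listed with earlier results of these data known, so their shares and median are no test against all genes. CPM values of the 2 groups overlapped for all 9 genes; groups that do not overlap were seen for 0.345% of tested genes.

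**Figure D1:**
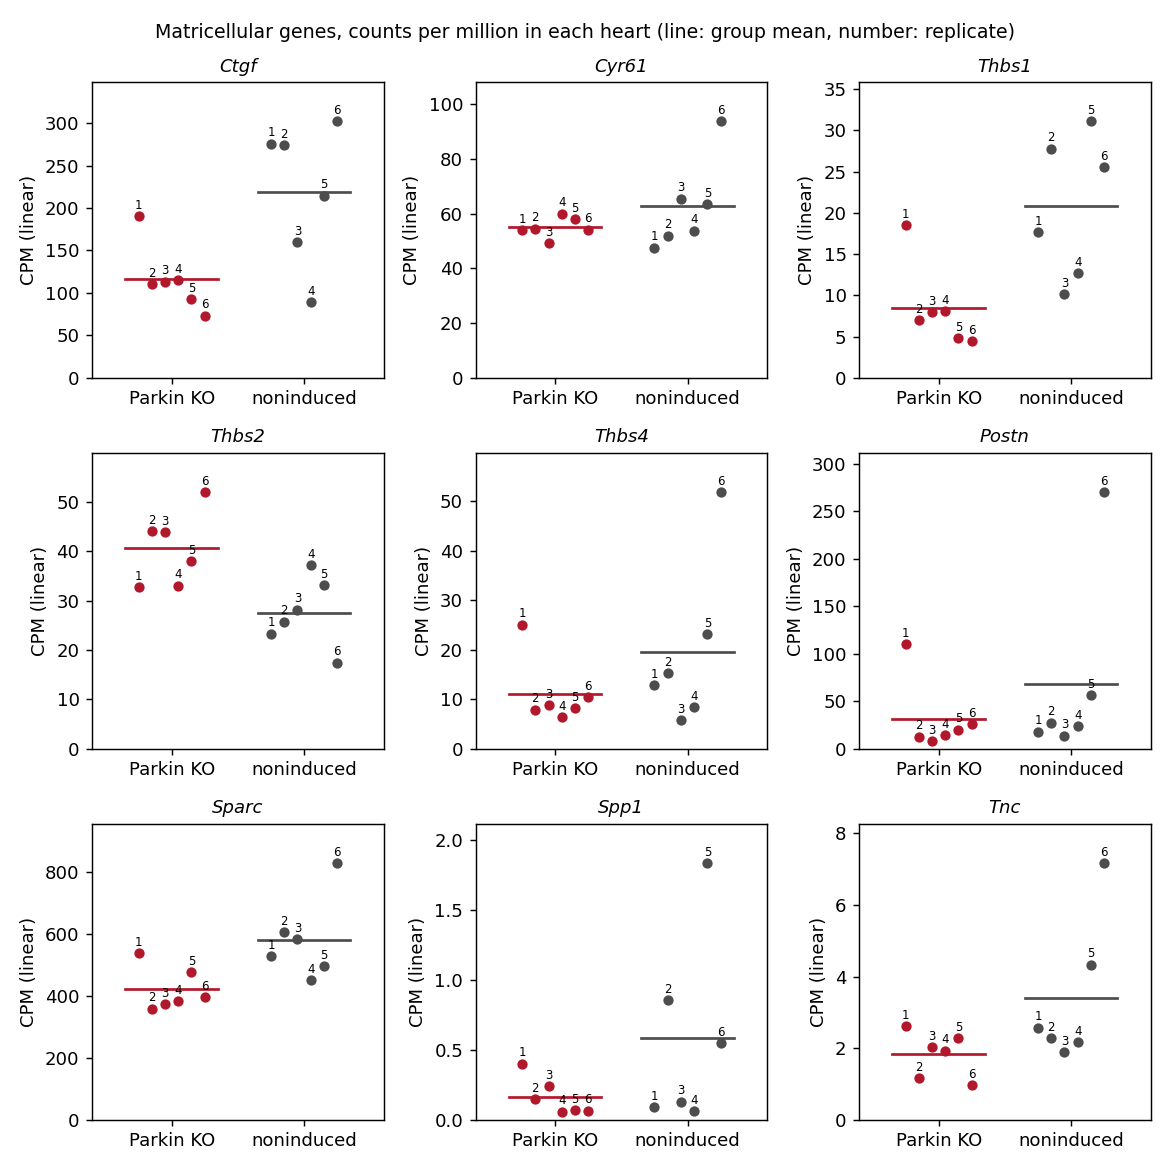
CPM (counts scaled to library size) of the 9 matricellular genes in each heart on linear axes that start at 0, with Parkin KO on the left and noninduced on the right of each panel. Points are libraries numbered by replicate and lines are group means; 4 Parkin KO libraries lie above every noninduced library for Thbs2, while Postn in noninduced library 6 reaches 271 CPM.

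Ctgf and Cyr61 encode secreted CCN proteins that bind integrins and heparan sulfate and are standard targets of YAP and TAZ with TEAD factors; Ctgf is also induced by TGF-beta. Ctgf (GRCm38 chr10:24595442-24598683, plus strand) ran from 73.4 to 190.0 CPM in Parkin KO hearts, with a median of 112, and from 88.9 to 303 CPM in noninduced hearts, with a median of 244. Every Parkin KO library was below the noninduced mean, and 4 noninduced libraries exceeded all Parkin KO libraries, but noninduced library 4 was below 5 of them. Parkin KO hearts averaged 116 ± 39.7 CPM, against 219 ± 82.1 CPM in noninduced hearts (SD, n = 6 each). The log2 fold change was -0.92 ± 0.27 (SE; approximate 95% interval -1.50 to -0.34), with an adjusted p of 0.417. Of the exon bases of Ctgf, 23.2% are shared with an antisense gene, Gm15270, whose reads cannot be told apart in libraries without strand.

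Cyr61 (chr3:145646976-145649981, minus strand) was the steadiest member in Parkin KO hearts, at 49.4 to 60.0 CPM with a median of 54.3. In noninduced hearts it ran from 47.6 to 93.9 CPM with a median of 58.6, so the noninduced range encloses that of Parkin KO. Its log2 fold change was -0.19 ± 0.14 with an adjusted p of 0.572, and it came to -0.05 without noninduced library 6. The ratio of these CCN genes differed among hearts, and Ctgf was 1.35 to 3.52 times Cyr61 in Parkin KO and 1.65 to 5.80 times Cyr61 in noninduced libraries, by CPM.

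The thrombospondins had fitted differences of both signs. Thbs1 encodes thrombospondin-1, which binds CD36 and CD47 and activates latent TGF-beta, and Thbs2 encodes its closest relative, which also inhibits angiogenesis but lacks the TGF-beta activating sequence. Thbs1 (chr2:118111876-118127133, plus strand) ran from 4.42 to 18.5 CPM with a median of 7.49 in Parkin KO hearts, against 10.1 to 31.2 CPM with a median of 21.6 in noninduced hearts. Parkin KO libraries 2 to 6 were all below every noninduced library, and Parkin KO library 1 was the exception. The mean was 8.46 ± 5.16 CPM in Parkin KO hearts, against 20.8 ± 8.60 CPM in noninduced hearts (SD, n = 6 each). Its log2 fold change of -1.30 ± 0.35 (interval -2.04 to -0.56) had an adjusted p of 0.417. Thbs1 was highest in Parkin KO library 1 within its group and in noninduced libraries 2, 5 and 6 within theirs. The same 4 libraries had the highest atrial marker sums. In Parkin KO library 1 and noninduced library 6 that sum was mostly Nppa (1450 and 4049 CPM), and Myl7 was at 40.7 and 1.37 CPM. The part of atrial tissue was not tested. Without noninduced libraries 2 and 5 the log2 fold change of Thbs1 was -0.96.

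Thbs2 (chr17:14665500-14694235, minus strand) was at 32.8 to 52.1 CPM with a median of 41.0 in Parkin KO hearts, against 17.5 to 37.3 CPM with a median of 27.0 in noninduced hearts. Parkin KO libraries 2, 3, 5 and 6 were above every noninduced library, and Parkin KO libraries 1 and 4 were below noninduced libraries 4 and 5. Parkin KO hearts averaged 40.7 ± 7.48 CPM, against 27.5 ± 7.04 CPM in noninduced hearts (SD, n = 6 each), a log2 fold change of 0.56 ± 0.17 (interval 0.21 to 0.92) with an adjusted p of 0.417. Leaving out any 1 library gave 0.45 to 0.66.

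Thbs4, a thrombospondin of tendon, muscle and the loaded heart, has a different pattern, with a few hearts far above the rest. It (chr13:92751590-92794818, minus strand) ran from 6.37 to 25.05 CPM with a median of 8.48 in Parkin KO hearts, and from 5.83 to 51.9 CPM with a median of 14.1 in noninduced hearts. Parkin KO library 1 and noninduced libraries 5 and 6 were the only ones above 20 CPM. The log2 fold change was -0.83 ± 0.47 (interval -1.84 to 0.18, adjusted p 0.481). It was -0.25 without noninduced library 6 and -0.34 without those 3 libraries, which were left out because of their levels. Tendon and cartilage markers, in sum, were highest in noninduced libraries 5 (77.1 CPM), 2 (41.1 CPM) and 6 (31.1 CPM), against 8.61 to 21.3 CPM in Parkin KO libraries. Parkin KO library 1, high in Thbs4, had a sum of 15.4 CPM. The highest sum of its group was in Parkin KO library 3, where Thbs4 was at 8.81 CPM. The part of these markers in the Thbs4 values was not tested.

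**Figure D2:**
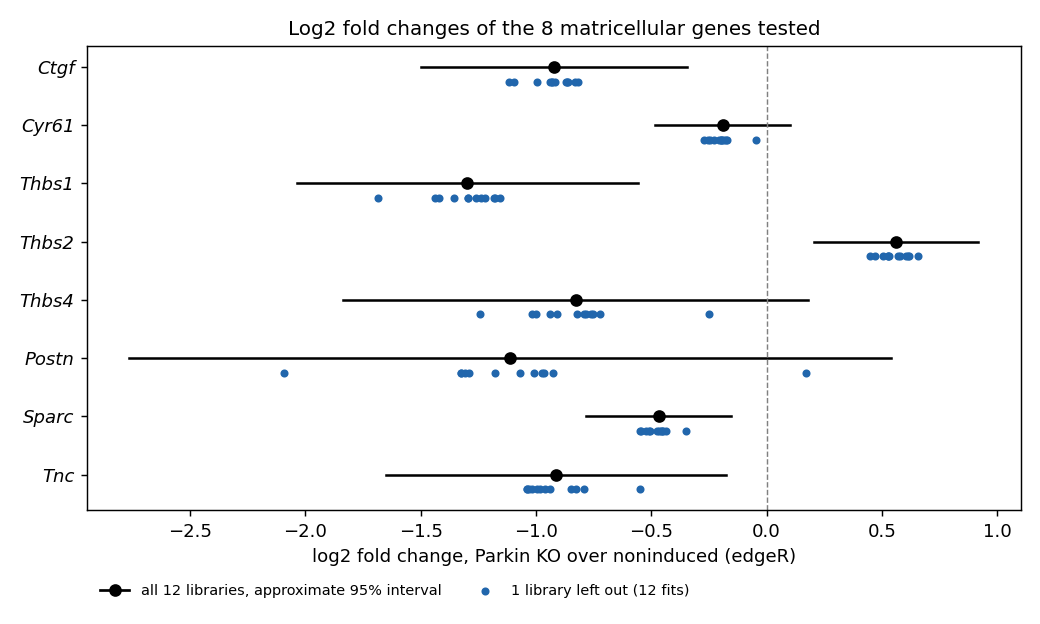
Log2 fold changes, Parkin KO over noninduced, of the 8 tested genes on the horizontal axis, with approximate 95% intervals as bars and the 12 fits that each leave out 1 library as small points. Postn spreads from -2.09 to 0.17 and Thbs4 from -1.24 to -0.25 over those fits, while Thbs2 stays between 0.45 and 0.66.

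Sparc and Postn encode proteins that bind collagen and are made by fibroblasts; SPARC takes part in collagen assembly, and periostin is the usual marker of activated cardiac fibroblasts. Sparc (chr11:55394500-55423183, minus strand), the most abundant of the 9, ran from 359 to 538 CPM with a median of 389 in Parkin KO hearts and from 451 to 829.9 CPM with a median of 555 in noninduced hearts. Parkin KO libraries 2, 3, 4 and 6 were below every noninduced library, and libraries 1 and 5 lay within the noninduced range. The mean was 421 ± 70.9 CPM in Parkin KO hearts, against 582 ± 134 CPM in noninduced hearts (SD, n = 6 each). The log2 fold change was -0.47 ± 0.15 (interval -0.78 to -0.15), with an adjusted p of 0.417, and it was -0.55 to -0.35 when any 1 library was left out.

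Postn (chr3:54361109-54391037, plus strand) ran from 8.15 to 110.3 CPM in Parkin KO hearts, with a median of 17.1, and from 13.9 to 271 CPM in noninduced hearts, with a median of 25.5. Apart from Parkin KO library 1 and noninduced libraries 5 (56.4 CPM) and 6, no library exceeded 27.4 CPM, and the groups overlapped over most of their ranges. The log2 fold change of -1.11 ± 0.77 (interval -2.76 to 0.54, adjusted p 0.556) rests on single hearts: it was 0.17 without noninduced library 6 and -2.09 without Parkin KO library 1. Its spread between hearts was among the widest measured, with an SD of log2 CPM of 1.30 in Parkin KO and 1.56 in noninduced hearts, above 99.7% of tested genes in each group; the medians over all tested genes were 0.201 in Parkin KO and 0.244 in noninduced hearts.

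Tnc and Spp1 encode tenascin-C, which appears at sites of remodelling, and osteopontin, a product of macrophages and stressed cells, and both were scarce. Tnc (chr4:63959785-64047015, minus strand) ran from 0.960 to 2.61 CPM in Parkin KO hearts, with a median of 1.98, and from 1.88 to 7.18 CPM in noninduced hearts, with a median of 2.42. Parkin KO libraries 2 and 6 were the lowest 2 of all, and noninduced libraries 5 and 6 the highest. Its log2 fold change was -0.91 ± 0.35 (interval -1.65 to -0.18, adjusted p 0.424), and -0.55 without noninduced library 6. On the log2(FPKM + 1) scale, which compresses low values, it was -0.22.

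Spp1 (chr5:104435118-104441050, plus strand) had 1 to 6 counts in Parkin KO libraries and 1, 9, 2, 1, 31 and 10 counts in noninduced libraries 1 to 6, and did not pass the filter on low counts. The 3 noninduced libraries above every Parkin KO library were 2, 5 and 6, and the other 3 were within the Parkin KO range. These 3 and Parkin KO library 1, the highest of its group, were also the highest in summed atrial markers, whose part was not tested. In Parkin KO library 1 and noninduced library 6 that sum was mostly Nppa (1450 and 4049 CPM). Tested without a filter, the log2 fold change of Spp1 was -1.81 with an adjusted p of 0.515. Of its exon bases, 18.8% are shared with another gene on the same strand, Gm42793.

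The sex of the hearts differed between the groups, and among the 3 Parkin KO and 5 noninduced libraries with at most 7 Y-linked reads, read as female, the directions were those over all hearts. There the log2 fold change was -1.0 for Thbs1, -0.73 for Ctgf, 0.42 for Thbs2, -0.43 for Sparc and -0.78 for Tnc. Of these, Thbs1 alone kept an unadjusted p under 0.05 (0.0154), and Ctgf had 0.0582. No adjusted p in that fit was under 0.844 for these genes. Without the libraries labelled noninduced 1 and 3, the values were -1.54 for Thbs1, -0.94 for Ctgf, 0.50 for Thbs2, -0.52 for Sparc, -1.16 for Tnc, -1.18 for Thbs4 and -1.59 for Postn.

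The genes also varied widely between hearts of the same group. Noninduced library 6 had the highest CPM of 6 of the 9 genes (Ctgf, Cyr61, Thbs4, Postn, Sparc and Tnc) and the lowest of Thbs2, and noninduced library 5 had the highest of Thbs1 and Spp1. Within Parkin KO, library 1 was among the 3 highest of all 12 libraries for Thbs4, Postn and Tnc. Spread differed between members: besides Postn, the SD of log2 CPM was wide for Thbs4 (0.69 in Parkin KO and 1.10 in noninduced hearts), Thbs1 (0.73 in Parkin KO and 0.66 in noninduced hearts), Tnc (0.52 in Parkin KO and 0.71 in noninduced hearts) and Ctgf (0.45 in Parkin KO and 0.67 in noninduced hearts). The lowest SD of a tested member in Parkin KO hearts was that of Cyr61 (0.097, against 0.351 in noninduced hearts).

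**Figure D3:**
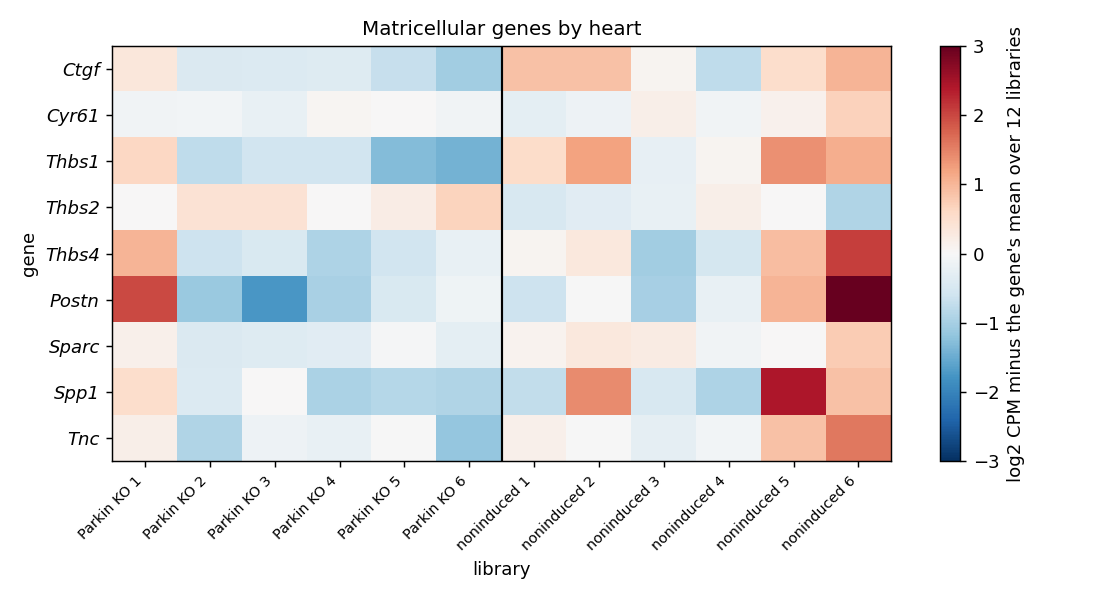
Log2 CPM of each gene minus its own mean over the 12 libraries, as colour, with Parkin KO libraries left and noninduced libraries right of the line. Parkin KO library 1 and noninduced libraries 5 and 6 are red for Postn and Thbs4, and noninduced library 6 is the bluest for Thbs2.

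Correlations of log2 CPM, centred on each group's mean, describe which genes varied together over the 12 hearts. Of 36 pairs, 28 had a Pearson r above 0, and 7 passed an adjusted permutation p of 0.05; by Spearman's rho 0 pairs passed, the smallest adjusted p being 0.0912. Thbs4 and Postn had the highest r, 0.918 (rho 0.783; permutation p 0.00044 and 0.00815, adjusted 0.0158 and 0.0912). Within the groups r was 0.899 in Parkin KO and 0.940 in noninduced hearts, and without the 2 libraries farthest from the median of Thbs4, Parkin KO 1 and noninduced 6, it was 0.70. Ctgf and Thbs1 had an r of 0.785 (rho 0.804; permutation p 0.00413 and 0.00382, adjusted 0.0421 and 0.0912), with 0.981 in Parkin KO and 0.679 in noninduced hearts, and 0.776 without the farthest 2.

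Thbs2 varied in the opposite direction from Ctgf, with an r of -0.779 (rho -0.762; permutation p 0.00679 and 0.00663, adjusted 0.0421 and 0.0912), and from Sparc, with an r of -0.784 (rho -0.734; permutation p 0.00645 and 0.0141, adjusted 0.0421 and 0.0912). Without the farthest 2 libraries these were -0.684 and -0.521. The other 3 pairs past the Pearson threshold were Thbs1 with Spp1 (r 0.791), Thbs4 with Tnc (0.761) and Thbs1 with Thbs4 (0.742). For Ctgf and Cyr61, which share their best known regulators, r was 0.176 (rho -0.042; permutation p 0.639 and 0.906). No pair passed after the farthest 2 libraries were left out, which leaves 10 libraries; r was then 0.799 for Thbs1 with Spp1 and 0.776 for Ctgf with Thbs1, but 0.434 for Thbs4 with Tnc and 0.533 for Thbs1 with Thbs4. Spp1 had 10 or fewer counts in 11 of the 12 libraries, which limits the precision of its correlations.

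**Figure D4:**
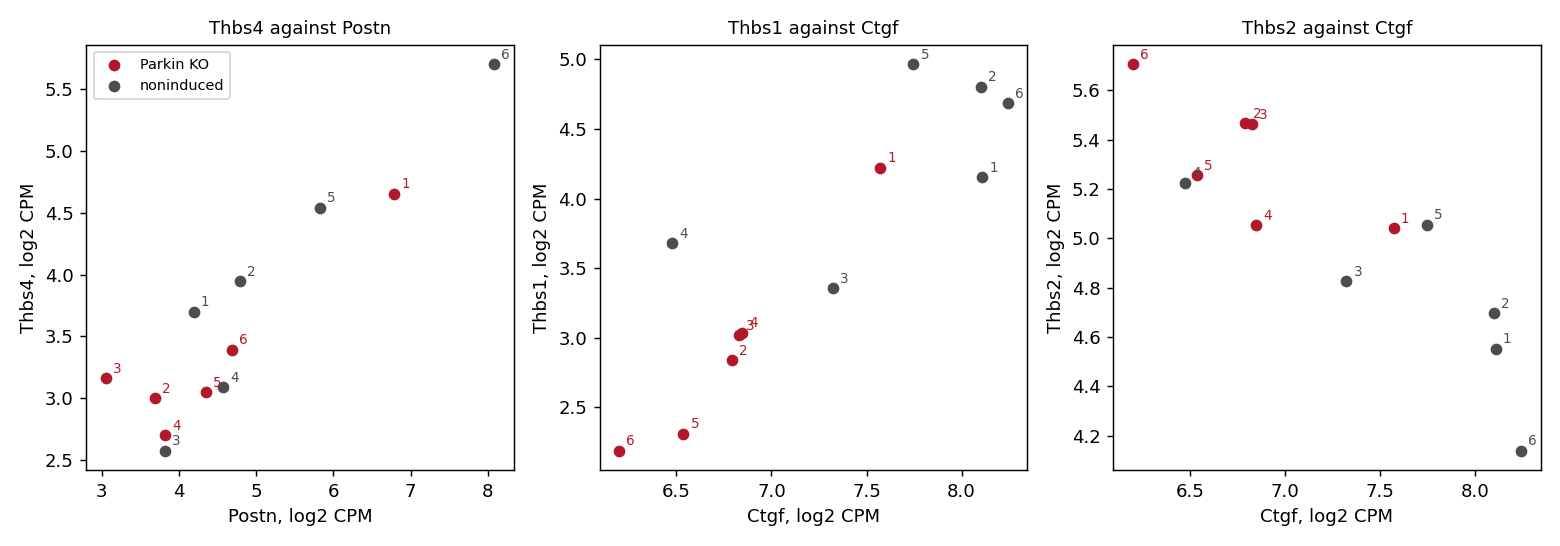
Log2 CPM of Thbs4 against Postn, Thbs1 against Ctgf and Thbs2 against Ctgf, with each point a library numbered by replicate, Parkin KO in red and noninduced in grey. The first pair extends along a diagonal to Parkin KO 1 and noninduced 6, the second is also rising (r 0.785 after centring on group means), and the third falls (r -0.779).

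The genes outside the 9 with the most similar pattern were found by the same centred Pearson r over 12 libraries, the 3 highest of all tested genes for each member, so high values follow from the choice. For Thbs4 these included Col12a1 (r 0.972) and Stk32b (0.963), and for Postn they were Hsp90aa1 (0.948), Emp1 (0.947) and Anxa2 (0.938). For Ctgf they were Pbxip1 (0.949), Ccnd2 (0.937) and Maff (0.919), for Thbs1 Ints6 (0.958), Bmp2 (0.908) and Pxdc1 (0.906), and for Thbs2 Arl4d (0.949), Cmtm4 (0.933) and Etfdh (0.922). Cyr61 was most like Ccdc53 (0.932), Dsn1 (0.915) and Hspa4 (0.908), but in Parkin KO hearts alone, where Cyr61 hardly varied, r with Hspa4 was 0.0089. The remaining members were most like Gm14005, Ugp2 and Mgat5b (Sparc, 0.943 to 0.947), Kif1a, Robo1 and Pam (Spp1, 0.905 to 0.947) and Ppp1r3g, Trim16 and Camkk2 (Tnc, 0.920 to 0.961).

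The regulators and partners of these proteins were read from lists of genes, and none of their members passed the test, the lowest adjusted p in edgeR being 0.417. Of 17 tested YAP/TAZ target genes other than Ctgf and Cyr61, 12 were lower and 5 higher, 0 of them at an unadjusted p under 0.05, with a median log2 fold change of -0.04. The 2 of smallest p were Fjx1 (-0.43) and Asap1 (-0.18). Ankrd1, a titin-binding stress gene of cardiomyocytes named after its values were seen, had 3215 CPM in Parkin KO library 1 and 6188 CPM in noninduced library 6, and 929 to 1696 CPM in the other 10. Of 12 YAP, TAZ and TEAD factors and Hippo pathway genes, 10 were lower (median -0.13), 2 of them at an unadjusted p under 0.05 (Tead1, -0.28, and Nf2, -0.24). The SRF and MRTF list had 12 of 16 lower, 5 at that p (median -0.20), among them Cnn1 (-1.06), Tagln (-0.67), Filip1l (-0.37) and Srf itself (-0.31). Cnn1 and Tagln were highest in noninduced libraries 5 (12.3 and 97.2 CPM), 2 (5.97 and 77.7 CPM) and 1 (4.17 and 55.1 CPM). In noninduced libraries 3, 4 and 6 they had 1.75 to 3.17 and 32.4 to 40.6 CPM. Parkin KO libraries had 1.79 to 3.26 and 30.5 to 40.1 CPM.

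Of 18 TGF-beta ligands, receptors and targets, 15 were lower, 6 of them at an unadjusted p under 0.05 (median -0.18), led by the feedback inhibitor Pmepa1 (-0.48), with Tgfbr2 (-0.23), Bmp1 (-0.18) and Smad7 (-0.31). All 23 tested immediate-early genes, which are switched on within minutes of a stimulus, had a fitted level below that of noninduced hearts, 12 of them at that p (median -0.54). Nr4a3 (-2.71) had 22.6 CPM in Parkin KO library 1 and 1.09 to 3.72 CPM in the other Parkin KO libraries. Among noninduced hearts, libraries 1 to 3 held 39.1 to 79.7 CPM and libraries 4 to 6 held 4.09 to 17.1 CPM. Fosb (-2.25), Egr3 (-1.74) and Egr1 (-0.69) were the others of smallest p, and Fosb too was higher in noninduced libraries 1 to 3 (7.19 to 14.7 CPM) than in 4 to 6 (1.04 to 2.05 CPM). Noninduced libraries 1 and 2 also had the highest shares of mitochondrial DNA reads, 15.2% and 15.4%, with 4.79 to 8.98% in Parkin KO libraries, and library 3 carries Esr1 and Y-linked reads; their part was not tested. Among receptors of these proteins, 11 of 16 were lower (median -0.12), including Itga5 (-0.23) and Itga8 (-0.80), while Cd36 (0.33), a thrombospondin receptor, was higher, these 3 at an unadjusted p under 0.05. Other matricellular genes had 10 of 13 lower (median -0.16), 4 of them at that p: Wisp1 (-0.88), Smoc1 (-0.67), Nov (-1.03) and Fbln5 (-0.30). Wisp1, Smoc1 and Nov had 8.13, 20.2 and 13.1 CPM in noninduced library 5. In the other noninduced libraries they had at most 3.32, 9.01 and 5.21 CPM. Itga8 too was highest in noninduced library 5, at 12.9 CPM, against at most 7.58 CPM in the others of its group. The background for the numbers of genes at an unadjusted p under 0.05 is 5.54% of all tested genes lower and 5.82% higher. The lists were drawn up with earlier results of these data known, so counts above that background are no test.

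Markers of the cells that make these proteins gave overlapping sums in the groups. Fibroblast markers summed to 2429 to 4419 CPM in Parkin KO and 2462 to 4077 CPM in noninduced libraries. Gsn (0.22) was the largest part of these sums, at 1416 to 2679 CPM in Parkin KO and 1287 to 2180.5 CPM in noninduced libraries. Of the 15 markers, 11 were lower, none at an unadjusted p under 0.05 (median -0.21), Ddr2 (-0.24) and Col1a1 (-0.47) having the smallest p. Macrophage markers summed to 219 to 359 CPM in Parkin KO and 273 to 360.4 CPM in noninduced libraries, with 10 of 14 lower, 3 at that p: Cd68 (-0.43), Lgals3 (-1.56) and C1qb (-0.32). Smooth muscle and pericyte markers had 8 of 10 lower, 2 at that p (Tagln and Cnn1, above; sums 1206 to 1468 CPM in Parkin KO and 1201 to 1569.6 CPM in noninduced libraries). Endothelial markers had 6 of 10 higher, 1 at that p (Fabp4, 0.33; sums 1510.3 to 1741 CPM in Parkin KO libraries and 1429 to 1685 CPM in noninduced libraries).

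Platelet markers, which bear on Thbs1 as a platelet granule protein, summed to 13.1 to 17.3 CPM in Parkin KO and 10.4 to 19.9 CPM in noninduced libraries, with 3 of 4 tested higher and none at an unadjusted p under 0.05. Cardiomyocyte markers, most of them not particular to the ventricle, had 11 of 12 higher (Myl3, 0.33, and Pln, 0.30, at that p). Atrial markers had all 8 lower, 7 at that p, with a median of -3.53, among them Dkk3 (-2.88), Bmp10 (-5.39), Sln (-4.48) and Myl4 (-4.18). Each of those named was highest in noninduced libraries 5 and 2. Sln had 130 and 98.0 CPM there and 14.9 CPM in noninduced library 4. In noninduced libraries 1, 3 and 6 it had 0.164 to 1.42 CPM, within the Parkin KO range of 0.064 to 5.54 CPM. Tendon and cartilage markers had 3 of 3 lower, with Chad (-2.44) and Fmod (-1.36) at that p, mesothelial markers 5 of 5, with Wt1 (-0.63) at that p, and neutrophil and lymphocyte markers 5 of 5, with Cd4 (-0.76) at that p. Chad and Fmod too were highest in noninduced libraries 5 (21.8 and 49.0 CPM) and 2 (11.9 and 25.1 CPM). Of 2 red blood cell genes tested, 1 was higher and 1 lower, and Hba-a1, Hba-a2 and Hbb-b1 had 0 counts in all 12 libraries. No other marker was at 0 in all libraries. The part of these cells in the values of the 9 genes was not tested.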

How the data were processed

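Whole-number counts per gene symbol were deposited by the authors for 12 libraries, 6 Parkin KO and 6 noninduced; the submitters' processing notes name Bowtie2, TopHat2 2.0.10, HTSeq and build mm10. FPKM values were deposited in a second table, with Cufflinks 2.1 among the tools named in those notes. The gene annotation is not given in the sources used here. Columns carrying a wild-type abbreviation were matched to noninduced hearts by number. Of the 23457 rows of counts, 4873 are at 0 in every library.

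Counts were tested in R 4.3.3 with edgeR 4.0.16 (TMM, filterByExpr with a minimum count of 10, quasi-likelihood F test on group, two-sided), with Benjamini-Hochberg adjustment over all 13050 genes and a threshold of 0.05. CPM used TMM-scaled library sizes, and log2 CPM a prior count of 2. SEs and intervals were derived from the estimate and its F statistic and are approximate. Alternatives used other scalings, DESeq2 1.42.0, limma 3.58.1 (voom, and log2 FPKM with a pseudocount of 1 or 0.1 after leaving out 4 genes with failed estimates and those with a mean under 0.1), a replicate block, sex and left-out libraries. Correlations used 100000 permutations within groups, adjusted over 36 pairs. The code was tested on simulated data.

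The members and lists were chosen with earlier results of these data known. Genes named from a list are those at an unadjusted p under 0.05, at most 4 by smallest p, or otherwise the 2 of smallest p. Positions are 1-based GENCODE coordinates on GRCm38, the assembly that mm10 names. Motifs were counted over RefSeq windows of all genes. P-values measure the spread between hearts, which the labels do not further tie to litters or days. Some genes that the rules take are not reported here.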

Additional observations from a re-analysis of the deposited data

Results flagged for a closer look

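Parkin KO library 1 stood above the other 5 Parkin KO hearts for several of the genes. On the CPM scale its gap to the next library, as a share of the group's whole range, was 0.643 for Ctgf (190.0 CPM), 0.741 for Thbs1 (18.5 CPM), 0.786 for Thbs4 (25.05 CPM) and 0.83 for Postn (110.3 CPM), each above Dixon's 95% critical value for 6 samples. Noninduced library 6 did so for Postn (271 CPM), with a share of 0.834. These are 5 of 18 groups of values examined. On the log2 CPM scale 1 of 18 passed, Thbs4 in Parkin KO library 1, with 0.646. Chance marks about 1 in 20, and genes read from the same library are not independent. The total count of Parkin KO library 1 and its share of mitochondrial DNA reads lay within the range of the other Parkin KO libraries, while its atrial marker sum, 1592 CPM, was the highest of its group. Of that sum, 1450 CPM came from Nppa. Without Parkin KO library 1 the log2 fold changes were -1.12 for Ctgf, -1.68 for Thbs1, -1.24 for Thbs4 and -2.09 for Postn.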

How the results depend on the processing

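Over 26 alternative settings per tested gene, none of the 9 genes was called. Ctgf, Thbs1, Thbs4, Sparc and Tnc kept a lower and Thbs2 a higher fitted level in Parkin KO hearts in all 26. Postn was lower in 25 of 26 and turned to 0.17 without noninduced library 6, at the end of a leave-one-out range of -2.09 to 0.17. Cyr61 was lower in 25 of 26 and turned to 0.0014 without Parkin KO library 1 and noninduced libraries 5 and 6, an alternative added after the data were seen because these libraries were highest in Postn and Thbs4. Of all genes, 0 were called by edgeR, and 0 when any 1 library was left out; DESeq2 called 10, edgeR without the libraries labelled noninduced 1 and 3 called 1, and edgeR without Parkin KO 1 and noninduced 5 and 6 called 6, none of them members. Genes at an unadjusted p under 0.05 numbered 1483, and 932 to 2131 with 1 library left out, 946 without noninduced libraries 2 and 5, 628 in females alone, 784 with a sex term and 2332 without the 3 libraries named. The 7 pairs past the Pearson threshold became 0 in Parkin KO alone, 0 in noninduced alone, 0 without the 2 farthest libraries and 0 by Spearman's rho, the last added after the data were seen; with 6 libraries a group, correction over 36 pairs leaves little room for a call. Fewer libraries enter each reduced fit, and causes of these shifts were not tested.

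Replicate numbers are shared by the groups but were not found to pair the hearts: deviations of same-numbered libraries correlated at -0.0991 to 0.166, and 4 of 6 were under 0.1. With the replicate block, 0 genes and 0 members were called, 1700 genes had an unadjusted p under 0.05, and the log2 fold changes were -1.33 for Thbs1, -0.87 for Ctgf and 0.58 for Thbs2. Depth limits Spp1 and Tnc, since 1 count is worth up to 0.0948 CPM.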

Other observations

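The balance between the 2 closely related thrombospondins was looked at after the values had been seen, so no test is given. The CPM of Thbs2 was 1.77 to 11.8 times that of Thbs1 in Parkin KO libraries and 0.683 to 2.94 times in noninduced libraries. In Parkin KO libraries 2 to 6 it was 4.10 or more, above all noninduced libraries, and Parkin KO library 1 lay within the noninduced range. Noninduced libraries 2 and 6 were the 2 in which Thbs1 exceeded Thbs2.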
